A study of Mus musculus with 10 samples.

Results

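Basal cells are the stem cells of the airway lining, and their identity is read from a small set of genes that includes more than the basal keratins. The values here are those of 6 such genes, Trp63, Ngfr, Pdpn, Snai2, Dlk2 and Aqp3, which were picked by symbol as non-keratin markers of airway basal cells, out of 22457 genes in the deposited count table. All 6 had a row and passed the filter on low counts. RNA-seq was made from mouse tracheal epithelial organoids, multicellular structures that grow in a gel from single epithelial cells, with 3 libraries from M3-CKO mice, which the series title describes as a Mettl3 knockout, and 3 from control (Ctrl) mice. Mettl3 is the catalytic subunit of the complex that writes N6-methyladenosine on messenger RNA. Organoids of both genotypes were harvested on day 14. Both were grown in Matrigel in a medium with insulin, cholera toxin, epidermal growth factor (25 ng/ml), retinoic acid (50 nM), the TGF-beta receptor inhibitor A83-01 (1 µM) and the BMP receptor inhibitor DMH-1 (1 µM), with the ROCK inhibitor Y-27632 for the first 3 days. The labels also give a differentiation medium with less epidermal growth factor (5 ng/ml) and neither A83-01 nor DMH-1, but not the day of the change. The labels give neither the age of the mice nor the driver of the knockout, the cells it acts in or the deleted part of the gene, and the protocol names no sort for basal cells between digestion of the peeled epithelium and seeding. The single m6A immunoprecipitation and input libraries of each genotype were not analysed here.

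In the trachea, basal cells sit on the basement membrane beneath the luminal cells, divide to renew themselves, and give rise to club and ciliated cells. The transcription factor encoded by Trp63 is needed for the basal layer of stratified and airway epithelia to form. Ngfr, the low-affinity neurotrophin receptor, and Pdpn, the mucin-type glycoprotein podoplanin, are surface proteins by which basal cells are often recognised. Snai2 encodes the zinc finger repressor Slug, Dlk2 a transmembrane protein with EGF-like repeats related to Notch ligands, and Aqp3 an aquaporin that passes water and glycerol. All of these are also made in other tissues.

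Total counts ran from 8906375 to 10485922 per library. Levels are given in CPM, a gene's counts set against the library total scaled by the TMM method, and are not corrected for gene length. The 3 Ctrl libraries were alike, with Pearson r across genes of log2 CPM of 0.967 to 0.977, and that between M3-CKO replicates 1 and 2 was 0.985. The third M3-CKO library differed from all others, with r of 0.919 and 0.908 to the other M3-CKO libraries and 0.919 to 0.925 to the Ctrl libraries. These r are across genes, which are not independent replicates. The results of the 6 genes are therefore given with and without M3-CKO replicate 3. Mettl3 itself had 11.1, 10.3 and 9.87 CPM in M3-CKO replicates 1 to 3, against 14.96, 17.0 and 18.9 CPM in the Ctrl replicates, with no overlap, and its log2 fold change was -0.70 (SE 0.21, edgeR adjusted p = 0.12). The deleted stretch is not known here, so counts over the whole gene check the label only in part. All 10 listed markers of airway epithelium were tested, with 0 called (1, Ehf, at an unadjusted edgeR p under 0.05, 0 by DESeq2). Over all tested genes these shares were 2.91% called, 20.5% at that unadjusted p and 10.4% by DESeq2. The list's median log2 fold change was -0.007, with 5 of the 10 positive. Epcam, an epithelial adhesion protein, averaged 528.1 CPM in M3-CKO and 419.0 CPM in Ctrl, and Ehf averaged 957.8 CPM in M3-CKO and 1285 CPM in Ctrl.

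Of the 6 genes, all but Pdpn were lower in M3-CKO replicates 1 and 2 than in every Ctrl library (5 of 6), as were 28.8% of all tested genes. M3-CKO replicate 3 lay within the Ctrl range for Trp63, Ngfr, Pdpn, Snai2 and Dlk2 and above it for Aqp3. With all 6 libraries the log2 fold changes of M3-CKO over Ctrl ran from -0.81 (Trp63) to -0.06 (Pdpn), with a median of -0.72, against 0.02 over all 13528 tested genes. With edgeR's quasi-likelihood test at a Benjamini-Hochberg adjusted p under 0.05, 0 of the 6 were called, where 2.91% of all tested genes were. DESeq2 also called 0 of the 6, against 10.4% of all tested genes (6.06% higher and 4.31% lower). Limma-voom called 0 of the 6, and 302 of all 13528 tested genes. One of them, Trp63, had an unadjusted edgeR p under 0.05, as did 20.5% of all tested genes. The groups did not overlap for 0 of the 6, against 27.1% of all tested genes. Without M3-CKO replicate 3, edgeR called 4 of the 6 lower and 0 higher (Trp63, Ngfr, Dlk2 and Aqp3), in a setting where 11.3% of all tested genes were called lower. That setting sets Ctrl against a pair of libraries that lie closer together than any in Ctrl. Nothing in the labels ties a replicate to its own animal or culture, so the p-values measure no more than how these libraries spread, and that spread may be technical. In whole organoids, fewer basal cells and less RNA per basal cell cannot be told apart.

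**Figure D1:**
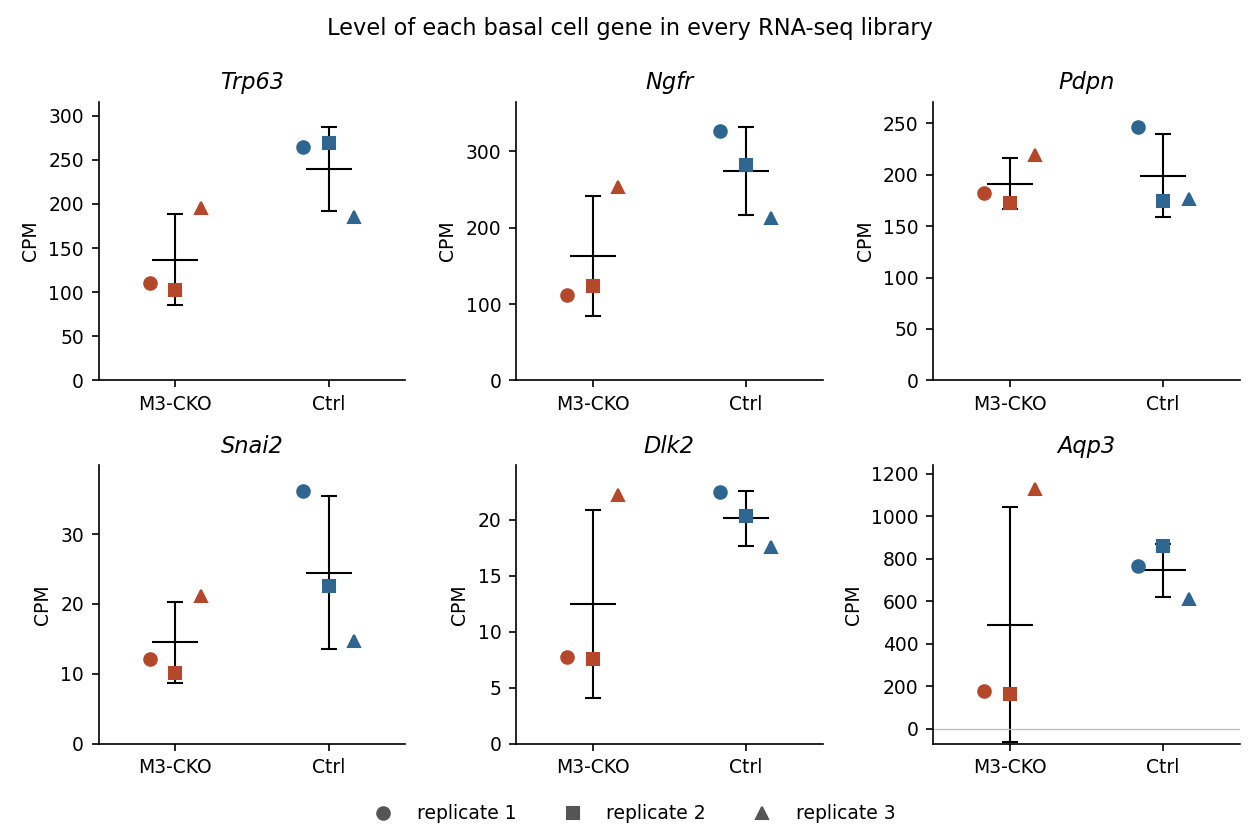
CPM of Trp63, Ngfr, Pdpn, Snai2, Dlk2 and Aqp3 (vertical axes, each with its own scale) in the 3 M3-CKO and 3 Ctrl libraries; symbols mark the replicate number, the horizontal line the mean and the bar the SD (n = 3). M3-CKO replicates 1 and 2 lie together and, except for Pdpn, below all Ctrl libraries, while M3-CKO replicate 3 lies within or above the Ctrl range, at 1127 CPM for Aqp3 against 610.9 to 857.7 CPM in Ctrl.

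Trp63, which encodes the transcription factor p63, had 1148, 900 and 1925 counts in M3-CKO replicates 1 to 3, or 110.8, 102.7 and 195.8 CPM, against 2421, 2548 and 1648 counts in the Ctrl replicates, or 264.3, 269.4 and 185.1 CPM. M3-CKO replicates 1 and 2 were lowest, and the groups overlapped through M3-CKO replicate 3 and Ctrl replicate 3. The means were 136.4 ± 51.6 CPM in M3-CKO and 239.6 ± 47.3 CPM in Ctrl (SD, n = 3 each), with a log2 fold change of -0.81 (SE 0.28, 95% interval -1.47 to -0.16, edgeR adjusted p = 0.16). The estimate from the other 5 libraries was -1.17 (SE 0.18, edgeR adjusted p = 0.0034). The two-sided exact permutation p with all libraries was 0.2, where 3 libraries against 3 cannot go below 0.1.

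Ngfr, the neurotrophin receptor, had 111.6, 123.2 and 252.7 CPM in M3-CKO replicates 1 to 3, against 327.1, 282.0 and 212.5 CPM in the Ctrl replicates. As for Trp63, the groups overlapped only through M3-CKO replicate 3, which lay above Ctrl replicate 3. The log2 fold change was -0.75 (SE 0.33, 95% interval -1.53 to 0.02, edgeR adjusted p = 0.26; exact permutation p 0.2), and -1.23 without M3-CKO replicate 3 (SE 0.19, edgeR adjusted p = 0.0033).

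Snai2, the Slug repressor, was counted less deeply, with 89 to 208 counts per M3-CKO library and 131 to 332 per Ctrl library. Its level was 12.2, 10.2 and 21.2 CPM in M3-CKO replicates 1 to 3, against 36.3, 22.5 and 14.7 CPM in the Ctrl replicates. Its Ctrl libraries spread by 2.46-fold from lowest to highest, the widest Ctrl spread among the 6 genes. M3-CKO replicates 1 and 2 lay under all Ctrl libraries and M3-CKO replicate 3 between them. The log2 fold change was -0.76 (SE 0.40, edgeR adjusted p = 0.34; exact permutation p 0.2). Without Ctrl replicate 1 it was -0.36 (edgeR adjusted p = 0.71), and was -1.14 without M3-CKO replicate 3, just short of the call (SE 0.36, edgeR adjusted p = 0.0503).

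Dlk2, the Notch ligand relative, was the most even of the 6 in Ctrl (coefficient of variation 12.4%) and the second most uneven in M3-CKO (67.3%). It had 7.72, 7.53 and 22.2 CPM in M3-CKO replicates 1 to 3, against 22.5, 20.3 and 17.5 CPM in the Ctrl replicates, from 66 to 218 counts per library. M3-CKO replicates 1 and 2 averaged 37.9% of the Ctrl mean, and replicate 3 stood at 110.3% of it. The log2 fold change was -0.69 (SE 0.43, edgeR adjusted p = 0.42; exact permutation p 0.3) with all libraries and -1.40 without M3-CKO replicate 3 (SE 0.21, edgeR adjusted p = 0.0029).

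Aqp3, the aquaglyceroporin, gave the widest contrast within M3-CKO. It had 1816, 1431 and 11083 counts in M3-CKO replicates 1 to 3, or 175.3, 163.3 and 1127 CPM, against 7020, 8113 and 5439 counts in the Ctrl replicates, or 766.5, 857.7 and 610.9 CPM. The first 2 M3-CKO libraries lay far below Ctrl, at 22.7% of its mean, and replicate 3 lay above every Ctrl library, at 151.3% of the mean. The log2 fold change over all libraries, -0.61 (SE 0.70, 95% interval -2.25 to 1.03, edgeR adjusted p = 0.685; exact permutation p 0.4), averages these opposite positions, and was -2.14 without M3-CKO replicate 3 (SE 0.17, edgeR adjusted p = 0.000376). Limma-voom, which works on log values, gave -1.21 (adjusted p = 0.38) with all libraries.

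Pdpn, podoplanin, was the exception among the 6. It had 182.0, 172.6 and 219.7 CPM in M3-CKO replicates 1 to 3, against 246.3, 174.8 and 176.9 CPM in the Ctrl replicates, with the lowest value in M3-CKO replicate 2, the highest in Ctrl replicate 1 and the other 4 libraries between them. The means were 191.4 ± 24.9 CPM in M3-CKO and 199.3 ± 40.7 CPM in Ctrl (SD, n = 3 each). The log2 fold change was -0.06 (SE 0.19, edgeR adjusted p = 0.90; exact permutation p 0.8), and its 95% interval, -0.50 to 0.38, leaves room for a change of either sign. Its sign turned when M3-CKO replicate 2 (0.02) or Ctrl replicate 1 (0.13) was left out.

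**Figure D2:**
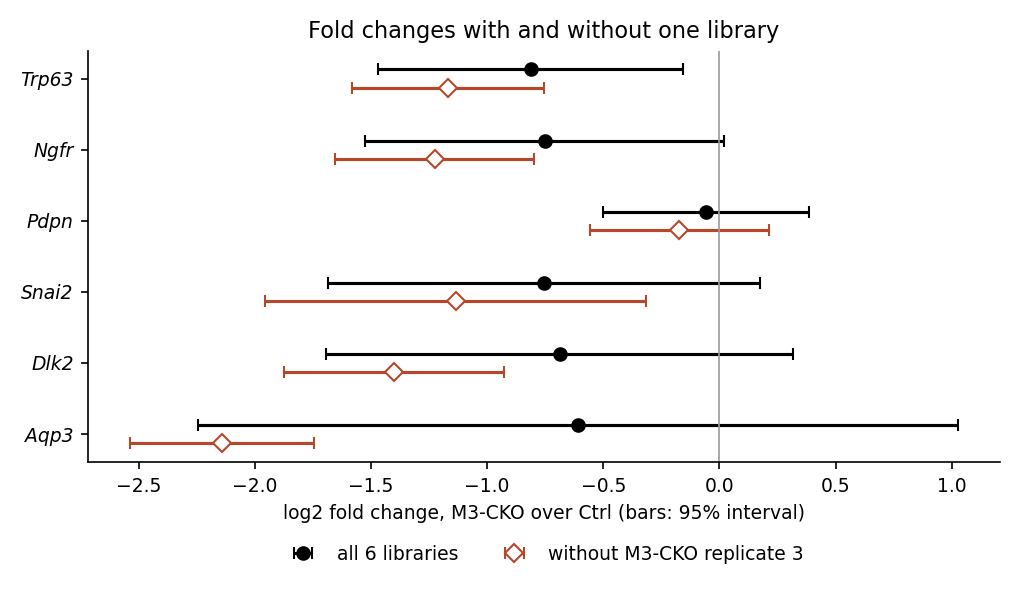
Log2 fold change of M3-CKO over Ctrl (horizontal axis) for each of the 6 genes, with its 95% interval from the edgeR fit, for all 6 libraries (filled circles) and without M3-CKO replicate 3 (open diamonds). The estimates without that library lie to the left for every gene, by most for Aqp3 (-0.61 with it and -2.14 without it) and by least for Pdpn (-0.06 and -0.17).

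M3-CKO replicate 3 was the highest of its group for all 6 genes. It thus exceeded the average of M3-CKO replicates 1 and 2 for all 6, as it did for 50.2% of all tested genes. It stood above that average 1.24-fold for Pdpn, 1.83-fold for Trp63, 1.90-fold for Snai2, 2.15-fold for Ngfr, 2.91-fold for Dlk2 and 6.66-fold for Aqp3, against a median of 1.00-fold over all tested genes. A fold at least as high as that of Aqp3 was found in 0.599% of tested genes, and one as high as that of Trp63 in 12.97%. The same library also held more RNA of club cell genes. The 8 listed club cell genes summed to 3568, 2969 and 8949 CPM in M3-CKO replicates 1 to 3 and to 6857, 7312 and 7520 CPM in the Ctrl replicates, and all 7 tested stood above the replicate 1 and 2 average in M3-CKO replicate 3. The part of this shift in the values of the 6 genes was not tested.

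Because counts of 2 genes from one library share its depth, their ratio needs no scaling between libraries, and a difference in gene length cancels when ratios are compared. Ngfr was counted 1.01, 1.20 and 1.29 times as often as Trp63 in M3-CKO replicates 1 to 3, and 1.24, 1.05 and 1.15 times in the Ctrl replicates. The 6 ratios spanned 1.28-fold, although the CPM of Trp63 alone spanned more. Dlk2 was counted at 0.0697, 0.0733 and 0.113 of Trp63 in M3-CKO replicates, against 0.0851, 0.0754 and 0.0947 in Ctrl, and Snai2 at 0.110, 0.0989 and 0.108 in M3-CKO, against 0.137, 0.0836 and 0.0795 in Ctrl. For these 3 ratios the groups overlapped and the mean log2 difference of M3-CKO minus Ctrl lay between -0.02 (Dlk2) and 0.12 (Snai2), with two-sided exact permutation p of 0.8 to 0.9. For Dlk2 this mean averages opposite positions, as M3-CKO replicates 1 and 2 lay under the Ctrl range and replicate 3 above it.

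Pdpn and Aqp3 departed further from Trp63, with 6 ratios that spanned 2.59-fold and 3.64-fold, against 1.63-fold for Dlk2 and 1.73-fold for Snai2. Pdpn was counted 1.64, 1.68 and 1.12 times as often as Trp63 in M3-CKO replicates 1 to 3, against 0.932, 0.649 and 0.956 times in the Ctrl replicates. Every M3-CKO ratio was above every Ctrl ratio, with a mean log2 difference of 0.81 (0.63 to 1.00 when single libraries were left out). The exact permutation p of 0.1 is the smallest this design allows, and it is 0.35 when adjusted over the 7 ratios computed. Aqp3 was counted 1.58, 1.59 and 5.76 times as often as Trp63 in the M3-CKO replicates, against 2.90, 3.18 and 3.30 times in Ctrl, so the first 2 M3-CKO libraries lay under and the third above the Ctrl range (exact permutation p 0.4). Aqp3 over Pdpn behaved alike, at 0.963, 0.946 and 5.13 in the M3-CKO replicates, against 3.11, 4.91 and 3.45 in Ctrl (mean log2 difference -1.17, exact permutation p 0.4).

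**Figure D3:**
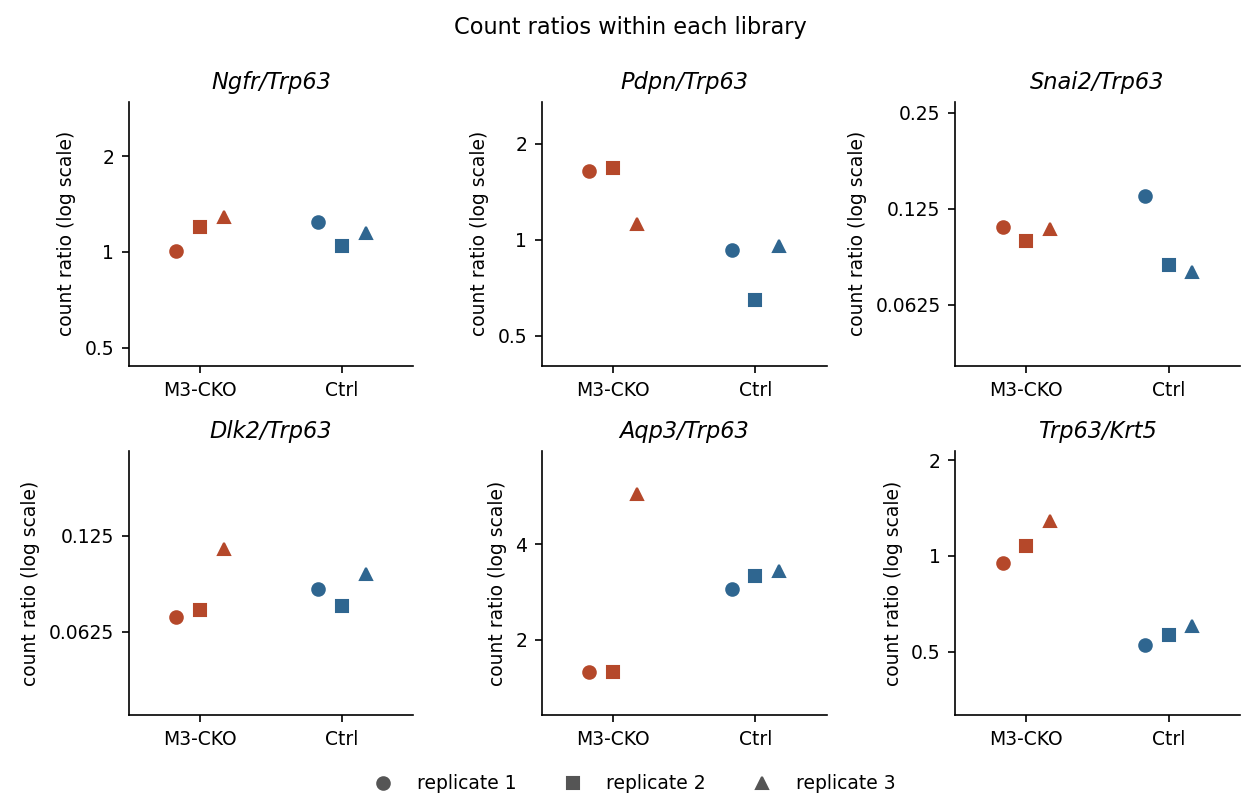
Ratio of the counts of 2 genes within each library (vertical axes, log scale; every panel spans the same fold range) for 5 genes over Trp63 and for Trp63 over Krt5; symbols mark the replicate number. Ngfr/Trp63 stays between 1.01 and 1.29 in all 6 libraries. Pdpn/Trp63 and Trp63/Krt5 are higher in every M3-CKO library than in any Ctrl library. Aqp3/Trp63 and Dlk2/Trp63 lie under the Ctrl range in M3-CKO replicates 1 and 2 and above it in replicate 3.

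Promoter sequences from RefSeq (build GRCm38.p6, from 250 bases before to 50 bases after the start) were matched for 4 of the 6 genes, Aqp3, Dlk2, Ngfr and Pdpn; the counts rest on build mm39. Those of Aqp3, Pdpn and Ngfr are shown, chosen after their ratios to Trp63 were seen. Capitals mark the E-box CAGGTG or its reverse complement CACCTG, the letters bound by Snail family factors such as the product of Snai2. All lie on the minus strand and are written 5′ to 3′ along it: Aqp3 at chr4:41098134-41098433, Pdpn at chr4:143299515-143299814 and Ngfr at chr11:95587649-95587948.
Aqp3: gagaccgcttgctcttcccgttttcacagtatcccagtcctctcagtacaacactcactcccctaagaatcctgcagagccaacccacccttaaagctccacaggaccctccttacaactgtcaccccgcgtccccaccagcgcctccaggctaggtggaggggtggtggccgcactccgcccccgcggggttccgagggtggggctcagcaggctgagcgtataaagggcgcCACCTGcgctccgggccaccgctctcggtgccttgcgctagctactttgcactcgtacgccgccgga
Pdpn: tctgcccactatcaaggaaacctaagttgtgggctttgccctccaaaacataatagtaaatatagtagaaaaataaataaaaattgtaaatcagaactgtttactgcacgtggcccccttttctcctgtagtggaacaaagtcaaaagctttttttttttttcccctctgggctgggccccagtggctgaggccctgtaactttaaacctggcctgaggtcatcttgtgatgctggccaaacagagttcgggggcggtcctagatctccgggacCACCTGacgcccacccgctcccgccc
Ngfr: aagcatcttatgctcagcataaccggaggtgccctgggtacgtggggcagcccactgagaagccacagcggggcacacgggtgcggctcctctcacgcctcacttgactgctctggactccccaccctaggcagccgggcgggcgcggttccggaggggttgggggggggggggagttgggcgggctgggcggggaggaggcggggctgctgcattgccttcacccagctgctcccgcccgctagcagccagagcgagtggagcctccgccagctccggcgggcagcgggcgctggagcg
The E-box letters occur once in the Aqp3 window, with the first base at position -17 from the start, and once in the Pdpn window, with the first base at 25. Neither the Ngfr window nor the 2 Dlk2 windows hold them, and 20.2% of the 32851 mouse promoter windows do. The core of the p63 response element (CATG, any 6 bases, CATG, which reads the same on both strands) was found in 0 of the 5 windows of these genes and in 0.712% of all windows. A match of letters describes the sequence and shows no binding. Any tie between these letters and the ratios to Trp63 was not tested.

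Other markers of airway basal cells divided between those that were lower in all M3-CKO libraries and those that were not. Of 15 listed genes, all tested, 3 fell and 0 rose, where 1.16% of all tested genes fell and 1.74% rose, and 12 were not called. At an unadjusted edgeR p under 0.05 there were 8 of the 15, and DESeq2 called 8, against 20.5% and 10.4% of all tested genes. The list's median log2 fold change was -0.72, equal at 2 decimals to that of the 6 genes. The 3 that fell are keratins of basal cells, Krt15 (log2 fold change -2.23, SE 0.21, edgeR adjusted p = 0.0083), Krt5 (-1.82, SE 0.26, edgeR adjusted p = 0.024) and Krt14 (-2.13, SE 0.38, edgeR adjusted p = 0.037). Without any 1 Ctrl library the call was lost for all 3, with edgeR adjusted p of 0.063 to 0.14, as it was without M3-CKO replicate 1 (0.067 to 0.12) and, for Krt5 and Krt14, without M3-CKO replicate 2 (0.080 and 0.10). These settings left few calls in the whole table, where 393 genes were called with all libraries. Without Ctrl replicates 1, 2 or 3 there were 0, 1 and 0, and without M3-CKO replicates 1 or 2 there were 14 and 18. The 4 uncalled genes of highest CPM were F3, which encodes tissue factor (-0.07), the integrin subunit Itga6 (0.42), the caveolar protein Cav1 (-0.06) and the adhesion molecule Icam1 (-0.01). Also uncalled, and named after their values were seen, were 4 genes lower in every M3-CKO library than in any Ctrl library: Dapl1 (-1.49), the hemidesmosome genes Col17a1 (-1.30), Dst (-0.84) and Itgb4 (-0.72), with edgeR adjusted p of 0.053 to 0.071. The laminin subunit Lamb3 was higher in every M3-CKO library (0.95, edgeR adjusted p = 0.081). Such a lack of overlap between the groups was found in 27.1% of all tested genes.

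Trp63 stood higher relative to Krt5 in every M3-CKO library than in any Ctrl library. Krt5 had 116.6, 95.6 and 152.5 CPM in M3-CKO replicates 1 to 3, against 501.8, 477.5 and 307.7 CPM in the Ctrl replicates. Trp63 was counted 0.950, 1.07 and 1.28 times as often as Krt5 in M3-CKO and 0.527, 0.564 and 0.601 times in Ctrl, without overlap. The mean log2 difference of this ratio was 0.96, and 0.84 to 1.06 when single libraries were left out, with an exact permutation p of 0.1 (0.35 adjusted over the 7 ratios). M3-CKO replicate 3 was above the replicate 1 and 2 average for 6 of the 15 other basal cell genes. Among the others, Krt17 had 33.4, 28.4 and 2.24 CPM in M3-CKO replicates 1 to 3, and Krt14 had 22.02, 19.9 and 9.05 CPM (both chosen after their values were seen).

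**Figure D4:**
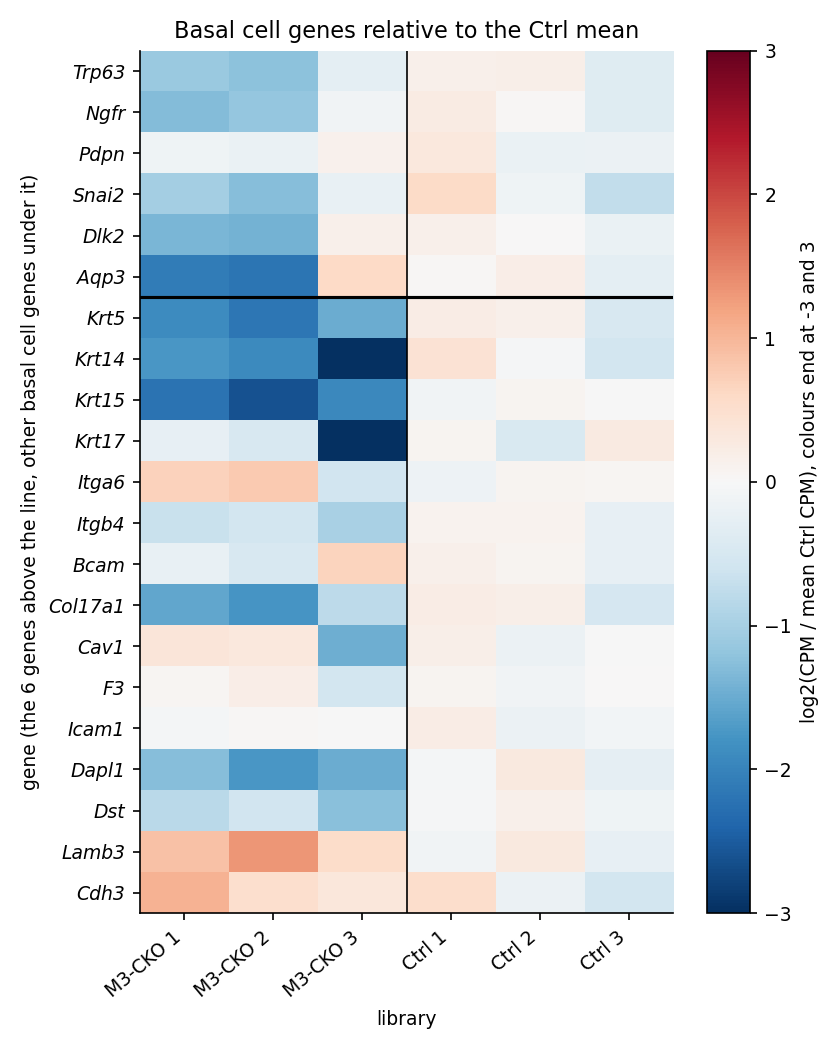
Log2 of CPM over the mean Ctrl CPM (colour; blue lower, red higher, ending at -3 and 3) for the 6 genes above the line and 15 other basal cell genes under it, by library. In M3-CKO replicate 3 the 6 genes run from -0.29 for Trp63 to 0.60 for Aqp3, which lies above every Ctrl library. Among the other genes Icam1 (-0.01), Cdh3 (0.35) and Lamb3 (0.54) lie in that range and Bcam (0.68) above it. All the rest lie below it, from F3 (-0.54) to Krt17 (-4.14), with Krt5 (-1.49), Krt14 (-3.03) and Krt15 (-1.94) among them.

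Among the relatives and known targets of Trp63, edgeR called 2 keratins. Trp73, a paralog in the p53 family, had only 8, 4 and 51 counts in M3-CKO replicates 1 to 3, and 38, 31 and 29 in the Ctrl replicates. Its level was 0.772, 0.456 and 5.19 CPM in M3-CKO replicates 1 to 3, against 4.15, 3.28 and 3.26 CPM in the Ctrl replicates, low and high in the same libraries as Aqp3, with a log2 fold change of -0.73 (SE 0.81, edgeR adjusted p = 0.67). Trp53, the tumour suppressor of the family, had one of -0.22 (SE 0.17, edgeR adjusted p = 0.53); neither was called, and neither passed an unadjusted p under 0.05 or DESeq2's test. Of 21 listed targets of p63 in stratified epithelia, all tested, Krt5 and Krt14 fell, 0 rose and 19 were uncalled, and the median was -0.17. Of all tested genes, 1.16% fell and 1.74% rose by the same edgeR test. At an unadjusted edgeR p under 0.05 there were 7 of the 21, and DESeq2 called 7, against 20.5% and 10.4% of all tested genes. This list shares 6 genes with the basal cell list. Its 4 uncalled genes of highest CPM were the growth factor carrier Igfbp3 (log2 fold change -0.47), the integrin subunit Itga3 (0.77, edgeR adjusted p = 0.069), the desmosomal protein Perp (-0.17) and the 14-3-3 protein Sfn (0.11).

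Among partners of the neurotrophin receptor, Sort1 fell. Sort1 encodes sortilin, a co-receptor of Ngfr for proneurotrophins, and had 278.9, 251.4 and 265.8 CPM in M3-CKO replicates 1 to 3, against 471.7, 419.2 and 531.6 CPM in the Ctrl replicates. All M3-CKO libraries, replicate 3 included, lay below all Ctrl libraries, with a log2 fold change of -0.84 (SE 0.16, edgeR adjusted p = 0.038). Leaving out any 1 library other than M3-CKO replicate 3 ended the call (edgeR adjusted p of 0.12 to 0.18). In those settings 0 to 18 genes were called in the whole table, against 393 with all libraries. The log2 fold change of Sort1 there lay between -0.92 and -0.75. Sort1 was the only one called of 11 tested genes, out of 15 listed and 14 with counts here, against 2.91% of all tested genes. The list's median was -0.11. At an unadjusted edgeR p under 0.05 there were 2 of the 11, and DESeq2 called 2, against 20.5% and 10.4% of all tested genes. The 4 uncalled genes of highest CPM were the receptor-binding adaptors Maged1 (-0.17), Bex3 (-0.45) and Traf6 (0.47) and the sortilin relative Sorcs2 (-0.82, edgeR adjusted p = 0.066).

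No tested gene was called with all libraries among the partners of podoplanin (0 of 6), the Snail family and its associates (0 of 3), the Notch ligands, receptors and targets (0 of 11) or the other aquaporins (0 of 5). At an unadjusted edgeR p under 0.05 there were 2 each among the podoplanin partners, the Notch genes and the aquaporins and 0 in the Snail list. DESeq2 called 1 podoplanin partner and 0 in the other lists. Of all tested genes, edgeR called 2.91%, 20.5% had an unadjusted edgeR p under 0.05, and DESeq2 called 10.4%. With lists this short, 0 calls say little about their genes. Ezr, a membrane-cytoskeleton linker bound by podoplanin, had a log2 fold change of -0.06 (SE 0.18), its relative Rdx 0.01 (SE 0.13), the hyaluronan receptor Cd44 0.85 (SE 0.26, edgeR adjusted p = 0.12) and the tetraspanin Cd9 0.64 (SE 0.23, edgeR adjusted p = 0.17). Cdh1, the E-cadherin gene that Snail factors can repress, stood at 1240 ± 223.4 CPM in M3-CKO and 1231 ± 107.6 CPM in Ctrl (SD, n = 3 each; log2 fold change 0.01, SE 0.19, edgeR adjusted p = 0.98). The paralog Snai1 and the mesenchymal filament gene Vim stayed under 1 CPM in every library of both groups and were not tested, so that Snai2 was the Snail family gene with the most counts. The other tested genes of that list were Snai3 (1.34, SE 0.79) and the matrix protein Fn1 (0.36, SE 0.25). Dlk1, the closest relative of Dlk2, was not analysed here. The 4 Notch pathway genes of highest CPM were the targets Hey1 (-0.53) and Hes1 (0.18), the receptor Notch2 (0.11) and the ligand Jag2 (-0.44).

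Of the other aquaporins, Aqp5, a water channel of secretory cells, resembled Aqp3 in part. It had 2004, 2081 and 4460 CPM in M3-CKO replicates 1 to 3, against 3202, 2670 and 2800 CPM in the Ctrl replicates (log2 fold change -0.02, SE 0.33, edgeR adjusted p = 0.98). Like Aqp3 it was lowest in M3-CKO replicates 1 and 2 and highest in replicate 3. Aqp4, another water channel of airway epithelium, was lower in every M3-CKO library than in any Ctrl library, at 2586 ± 416.7 CPM in M3-CKO and 3543 ± 293.9 CPM in Ctrl, and was not called (log2 fold change -0.45, SE 0.19, edgeR adjusted p = 0.24). Of the other 3 tested, Aqp6 had a log2 fold change of 0.19 (SE 0.31), Aqp2 one of 1.09 (SE 0.41, edgeR adjusted p = 0.19) and Aqp11 one of 0.29 (SE 0.39, edgeR adjusted p = 0.73).

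Without M3-CKO replicate 3 these lists gave more calls, as did the whole table, where edgeR then called 13.7% of tested genes higher and 11.3% lower. Of the other basal cell genes 2 were then called higher and 7 lower, with a median log2 fold change of -0.35, against -1.20 for the 6 genes and -0.02 for all tested genes. Of the p63 targets 3 were called higher and 6 lower, and of the neurotrophin list 1 higher and 3 lower. Of the podoplanin partners 2 were called higher and 0 lower, of the Snail list 1 and 0, of the Notch list 1 and 2, and of the other aquaporins 1 and 1. Trp73, called in that setting from 8 and 4 counts in M3-CKO replicates 1 and 2, had a log2 fold change of -2.50 (edgeR adjusted p = 0.0098), against -2.14 for Aqp3.

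The genes of nearest pattern were sought by the mean absolute difference of log2 CPM after each gene was centred on its own mean over the 6 libraries, among 10568 genes of at least 5 CPM. Among the 6 genes themselves, Trp63 and Ngfr were nearest (0.11), followed by Ngfr and Dlk2 (0.14), and Pdpn and Aqp3 were farthest apart (0.93). Outside the set, the nearest to Trp63 were Nmi, an interferon-induced protein gene (0.08), and the pseudogene Rbm3-ps (0.09), whose reads may be shared with its parent. Nearest to Ngfr were TrnW (0.08) and Coq8a (0.09), a gene of coenzyme Q synthesis, and to Dlk2 the tetraspanin Tspan33 (0.04) and the clathrin adaptor subunit Ap1b1 (0.09). Snai2 lay nearest Ttc22 (0.11) and the ubiquitin ligase Siah1b (0.13), Pdpn nearest Tmub2 (0.02) and Timm29 (0.04), and Aqp3 nearest the kinase Wnk4 (0.17) and the vesicle coat subunit Sec23b (0.18). The median distance over all of these candidates was 0.54 from Trp63 and 1.01 from Aqp3. With this many genes and 6 libraries near matches are found for any pattern, so they describe the libraries only.

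Cells other than basal cells can make several of the 6 genes. Markers of fibroblasts, myoepithelial cells, Schwann cells and lymphatic endothelium were low, while the club cell list, the luminal keratins and the alveolar type 1 list were abundant. Fibroblast genes, of which 3 of 8 were analysed, summed to 1.35 to 3.05 CPM in M3-CKO and 3.38 to 12.4 CPM in Ctrl, nearly all of it from the growth factor receptor gene Pdgfra, while Col1a1 and Dcn stayed under 1 CPM. Myoepithelial genes, with 4 of 6 analysed, summed to 0.203 to 3.96 CPM in M3-CKO and 0.211 to 2.07 CPM in Ctrl. Schwann cell genes, with 3 of 6 analysed and Sox10 not among them, summed to 2.40 to 7.02 CPM in M3-CKO and 3.49 to 7.08 CPM in Ctrl. Lymphatic endothelial genes, with 3 of 5 analysed, summed to 21.4 to 39.4 CPM in M3-CKO and 9.83 to 12.3 CPM in Ctrl, almost all from Flt4, a VEGF receptor gene that rose (log2 fold change 1.45, SE 0.27, edgeR adjusted p = 0.038), while the defining factor Prox1 stayed under 1 CPM. Of the alveolar type 1 list, with 6 of 7 genes analysed and a sum of 2200 to 4593 CPM in M3-CKO and 2917 to 3488 CPM in Ctrl, most came from Aqp5. In that list Ager, the defining receptor gene, averaged 4.70 CPM in M3-CKO and 2.27 CPM in Ctrl, and the homeobox gene Hopx fell (-0.98, SE 0.18, edgeR adjusted p = 0.037). The calls of Flt4 and Hopx were lost without any 1 Ctrl library and without M3-CKO replicate 1 or 2, and that of Flt4 also with limma-voom (adjusted p = 0.055). Without any 1 of those libraries 0 to 18 genes were called in the whole table. With all libraries limma-voom called 302 and edgeR 393. The 4 luminal keratins Krt7, Krt8, Krt18 and Krt19 had a median log2 fold change of -0.03 with 0 called (0 at an unadjusted edgeR p under 0.05 and 0 by DESeq2). Over all tested genes these shares were 2.91%, 20.5% and 10.4%. In the club cell list Scgb1a1, the secretoglobin of club cells, rose (5.23, SE 0.89, edgeR adjusted p = 0.033) and the other 6 tested were not called. Cbr2 (-0.69), Cyp2f2 (-0.59) and Bpifa1 (-0.50) had negative log2 fold changes, while 4 of the 7 tested had positive ones. The list's median was 0.57 with all libraries and -1.09 without M3-CKO replicate 3. In that setting edgeR called 1 higher and 3 lower, against 13.7% and 11.3% of all tested genes. The call of Scgb1a1 was lost without any 1 Ctrl library, without M3-CKO replicate 1, and with limma-voom (adjusted p = 0.091). Without any 1 of these 4 libraries 0 to 14 genes were called in the whole table.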

How the data were processed

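The authors deposited a table of whole-number counts per gene, not normalized, for 6 RNA-seq libraries; genes are named by symbol and no coordinates or lengths are given, so CPM ranks genes by their counts and not by transcript level. Per the labels' protocols, mRNA was purified and fragmented and read as pairs of 150 bases. The tools named in the submitters' processing notes are Trim Galore, HISAT2 and featureCounts, with build mm39. Tool versions, the annotation and the strand setting are not given, so reads of overlapping or near-identical genes are uncertain.

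With edgeR 4.0.16 in R 4.3.3, 13528 genes passed filterByExpr, TMM scaled the libraries, and the quasi-likelihood test compared M3-CKO with Ctrl, two-sided, without covariates; p-values were Benjamini-Hochberg adjusted over all tested genes and called under 0.05. SE is the log2 fold change over the square root of F. Alternatives used DESeq2 1.42.0, limma 3.58.1, other filters and scalings, a replicate block, and each library left out. The steps were tested on simulated data.

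The 6 genes and the 16 other lists were chosen with earlier results of these data known. Named by rule are the genes called in a list, up to 4 uncalled genes of highest CPM in each list related to one of the 6, and 2 genes of nearest pattern per gene. Further genes of the lists are named outside this rule, some of them after their values were seen. Leave-one-out values of the count ratios were added after seeing the data.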

Additional observations from a re-analysis of the deposited data

How the results depend on the processing

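Scaling, filter and test left the number of called genes among the 6 at 0 in every setting that kept all libraries. Over all genes, 393 were called, 1402 by DESeq2's Wald test, 740 without a low-count filter, 20 with the replicate number as a block, and 0 to 3483 when single libraries were left out. Same-numbered libraries did not deviate together (r of their deviations across genes -0.10 to 0.02) and share only a number, and the block called 0 of the 6 genes and turned no sign, while it moved Aqp3 to -1.30, against -0.61 without it. The block ended the calls of Krt5, Sort1, Scgb1a1, Flt4 and Hopx (edgeR adjusted p of 0.075 to 0.12). Leaving out single libraries gave 0 to 4 called genes among the 6, the 4 only without M3-CKO replicate 3. The log2 fold changes then ran from -1.17 to -0.64 for Trp63, -1.23 to -0.54 for Ngfr, -1.40 to -0.42 for Dlk2, -2.14 to -0.19 for Aqp3, -1.14 to -0.36 for Snai2 and -0.17 to 0.13 for Pdpn, whose sign turned without M3-CKO replicate 2 (0.02) and without Ctrl replicate 1 (0.13). Mettl3 ranged from -0.78 to -0.62. DESeq2 called it (-0.70, adjusted p = 0.049), as did edgeR when M3-CKO replicate 3 was left out (adjusted p = 0.043). The cause of these shifts was not tested. Snai2 and Dlk2 had the fewest counts of the 6 genes, 66 to 332 per library; the part of counting error in their spread was not tested.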
